A study of Canis lupus familiaris with 12 samples.

Results

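The 6 libraries described here are the untreated libraries in an RNA sequencing series of 12 from MDCK cells, an established line of dog kidney epithelial cells. They were chosen by their entries in the deposited sample sheet, where C1 replicates 1 to 3 are the 12 h controls and C2 replicates 1 to 3 the 24 h controls. The other 6 libraries come from cells given Yoda1, a chemical activator of the stretch-gated channel PIEZO1, at 25 µM, with T1 collected after 12 h and T2 after 24 h. All cells were grown in the same serum-containing medium and share no stated genetic change. No source used here gives the vehicle of the controls or the event from which their hours are counted.

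MDCK cells are used as a model of a renal tubular epithelium: they polarise, join each other through tight and adherens junctions and, once confluent, form a sheet that moves water and ions. Cell density, nutrients and secreted factors can change with hours in the dish, and serum is known to set the circadian clock of cultured cells. The first question is therefore what these cells express at rest, and the second is how far 24 h controls differ from 12 h controls.

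Library totals were 20709218 to 37241313 counts in C1 and 33150371 to 38889592 in C2. The tables hold 31121 gene IDs, 13022 of them with a symbol, and 14169 IDs (7682 with a symbol) passed the filter on low counts and were tested. In the untreated libraries, 33.26% to 34.07% of counts fell on IDs that carry no symbol. The C2 libraries were less alike than the C1 libraries. C2 replicates 1 and 2 had 1266 genes at least 2-fold apart, the other C2 pairs 675 and 680, and the C1 pairs 470 to 528. The first principal component of the 6 libraries (28.59% of the variance) placed C2 replicate 1 at 38.93 and C2 replicate 2 at -32.59, with the 3 C1 libraries between them. Within each group the counts of every pair differed by more than counting noise alone would give, and no library was merged with another.

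In TPM, a level corrected for transcript length and scaled to a common total, the untreated cells gave a concentrated profile. A mean of at least 1 TPM was reached by 12403 IDs, at least 100 TPM by 1769 and at least 1000 TPM by 135, while 10653 IDs were at 0 in all 6 libraries. The 50 most abundant IDs held 20.92% of all TPM, from 20.08% to 22.16% per library, and the 1000 most abundant held 63.86%. Of the 50, 28 were on the ribosomal protein list and 9 had no symbol, and 48 of the top 50 of C1 were also in the top 50 of C2. Ribosomal proteins as a whole held 15.61% of TPM, oxidative phosphorylation genes 2.096% and translation factors 1.642%.

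The most abundant named gene was FTL, the light chain of the iron store ferritin. FTL was at 7532, 8570 and 7112 TPM in the C1 libraries and at 6336, 13182 and 15621 TPM in the C2 libraries. C2 replicate 1 lay below every C1 library and the other C2 libraries lay above them, so the groups overlapped. Its log2 fold change of 0.56 ± 0.28 (SE, 24 h minus 12 h) did not pass the test (edgeR adjusted p = 0.468, n = 3 libraries per group).

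After FTL, ADIRF, a small adipogenesis-related factor, averaged 5895 TPM and GAPDH, a glycolytic enzyme, 5504 TPM. LGALS3, the sugar-binding galectin-3, averaged 4791 TPM and CLU, the secreted chaperone clusterin, 4141 TPM. These 4 genes had overlapping C1 and C2 libraries. ANXA2 (4415 TPM) and ANXA1 (3796 TPM), calcium-dependent membrane-binding annexins, and S100A10 (2433 TPM in 1 ID and 1580 TPM in another), the partner of ANXA2, led the calcium list. Reads of IDs that share a symbol may have been divided between them, so each such level is uncertain.

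The cytoskeleton was led by ACTG1, gamma actin, at 3535 TPM, with MYL6, a myosin light chain, at 2214 TPM, CFL1, the actin-severing cofilin, at 2065 TPM and EZR, the membrane linker ezrin, at 1136 TPM. Among intermediate filaments, KRT89 averaged 3226 TPM, KRT15 1602 TPM and KRT18, a keratin of simple epithelia, 1435 TPM. VIM, vimentin, the intermediate filament typical of mesenchymal and many cultured cells, averaged 1997 TPM in C1 and 1201 TPM in C2, against 1731 and 1472 TPM for KRT15, so the order of these genes differed between the times. Other highly expressed genes were WFDC2, a secreted protein of epithelia, at 3271 TPM, PRDX1, a peroxide-removing enzyme, at 3262 TPM, and CAV1, the coat protein of caveolae, at 2254 TPM.

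**Figure D1:**
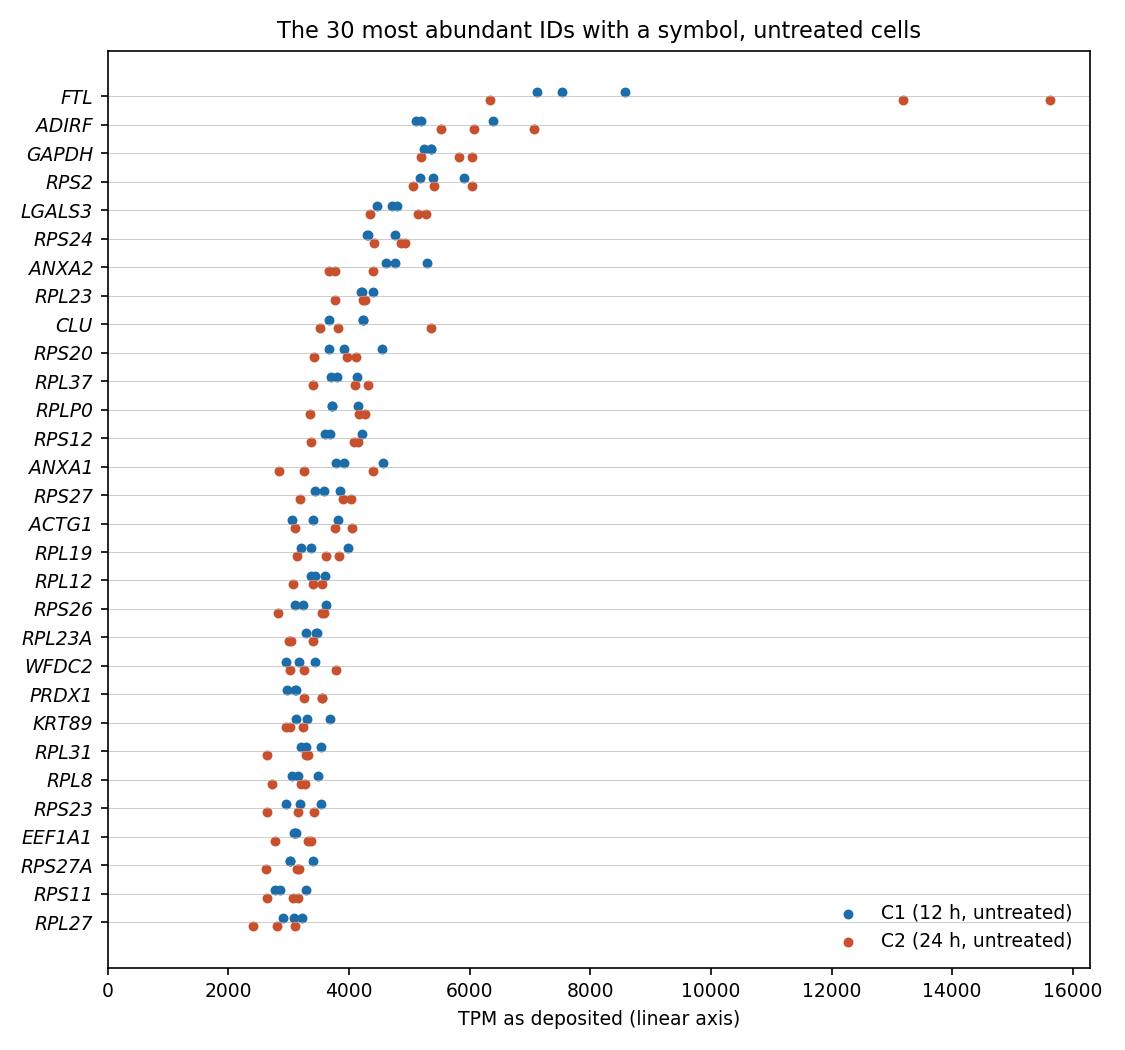
The 30 most abundant gene IDs that have a symbol, ordered by mean over the 6 untreated libraries; the horizontal axis is TPM as deposited, on a linear scale from 0, and each point is 1 library (blue, C1 at 12 h; red, C2 at 24 h). FTL has the widest range, with C2 replicate 1 at 6336 TPM and the other C2 libraries at 13182 and 15621 TPM, while C1 and C2 points are mixed for most ribosomal protein genes.

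The label of kidney epithelium was set against marker genes. Of the 27 IDs on the epithelial and renal tubule list, 22 averaged at least 1 TPM and 15 at least 10 TPM, while 5 were under 1 TPM. The list median was 14.77 TPM, and 27 of its 34 symbols had a named ID. Its higher members included SPINT2, a protease inhibitor of epithelial surfaces, at 1482 TPM, and CDH1, E-cadherin, at 430.1 TPM. PAX8, a transcription factor of the renal tubule, averaged 109 TPM. CDH1 was present in every library, between 366.2 and 497.9 TPM.

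Genes of several kinds of cell junction and of attachment to the matrix were expressed. JUP, which encodes plakoglobin, averaged 508.8 TPM, CTNNB1, beta-catenin, 392.9 TPM and CTNNA1, alpha-catenin, 387.6 TPM. Of the tight junction claudins, CLDN7 averaged 477.5 TPM, CLDN1 315.4 TPM and CLDN3 121.6 TPM, and the junction protein OCLN 38.2 TPM. The desmosomal and hemidesmosomal list was led by PERP at 579.8 TPM, PLEC at 425.5 TPM and COL17A1 at 348.8 TPM. The integrin list was led by ACTN4, an actin crosslinker, at 470.3 TPM, ITGA3, a laminin-binding integrin subunit, at 377.6 TPM and its partner ITGB1 at 373 TPM.

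Markers of single nephron segments were low. Of collecting duct principal cell markers, the vasopressin receptor gene AVPR2 averaged 12.3 TPM, the water channel AQP2 6.05 TPM in 1 of its 2 IDs and 0 in the other, and the sodium channel subunit SCNN1B 3.47 TPM. SGK1 at 269.8 TPM and STC1 at 404.2 TPM are on the same list but are also expressed widely elsewhere. Only 5 of 17 proximal tubule IDs averaged at least 1 TPM. Their summed level was 6.02 to 7.13 TPM in C1 and 6.93 to 18.08 TPM in C2, and the scavenger receptor gene LRP2 was at 0.0283 TPM. CA2, a carbonic anhydrase of intercalated cells, averaged 140.5 TPM, whereas 10 of 12 IDs on that list were under 1 TPM. CLDN16 at 5 TPM was the only loop or distal tubule marker above 1 TPM, where 10 of 17 symbols had a named ID.

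Those markers of other cell types that had a named ID were mostly at or near 0. Fibroblast markers summed to 4.27 to 5.3 TPM in C1 and 2.89 to 4.88 TPM in C2, with 10 of 12 IDs under 1 TPM and DCN, LUM and FAP at 0. Of 8 endothelial IDs, FLT1, a VEGF receptor, averaged 37.3 TPM and KDR 4.67 TPM, while CDH5 was at 0.112 TPM. PODXL, a sialomucin of podocytes that MDCK cells also carry on their apical surface, averaged 79 TPM. It was the only podocyte marker above 1 TPM, but only 4 of the 10 podocyte symbols had a named ID. In these bulk samples, fewer cells of a type and less RNA per cell cannot be told apart.

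The immune list held an exception. CD74, the invariant chain of MHC class II, averaged 1843 TPM, and an ID named CD79A, the symbol of a B cell receptor chain, 786.1 TPM, while a second CD79A ID was at 0.222 TPM. CD3D and MS4A1 were at 0 and PTPRC, the pan-leukocyte marker, at 0.01 TPM. CD74 and CD79A were thus high in libraries with next to no PTPRC, and summed immune list levels (2339 to 2838 TPM in C1, 2178 to 2972 TPM in C2) overlapped between the times.

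**Figure D2:**
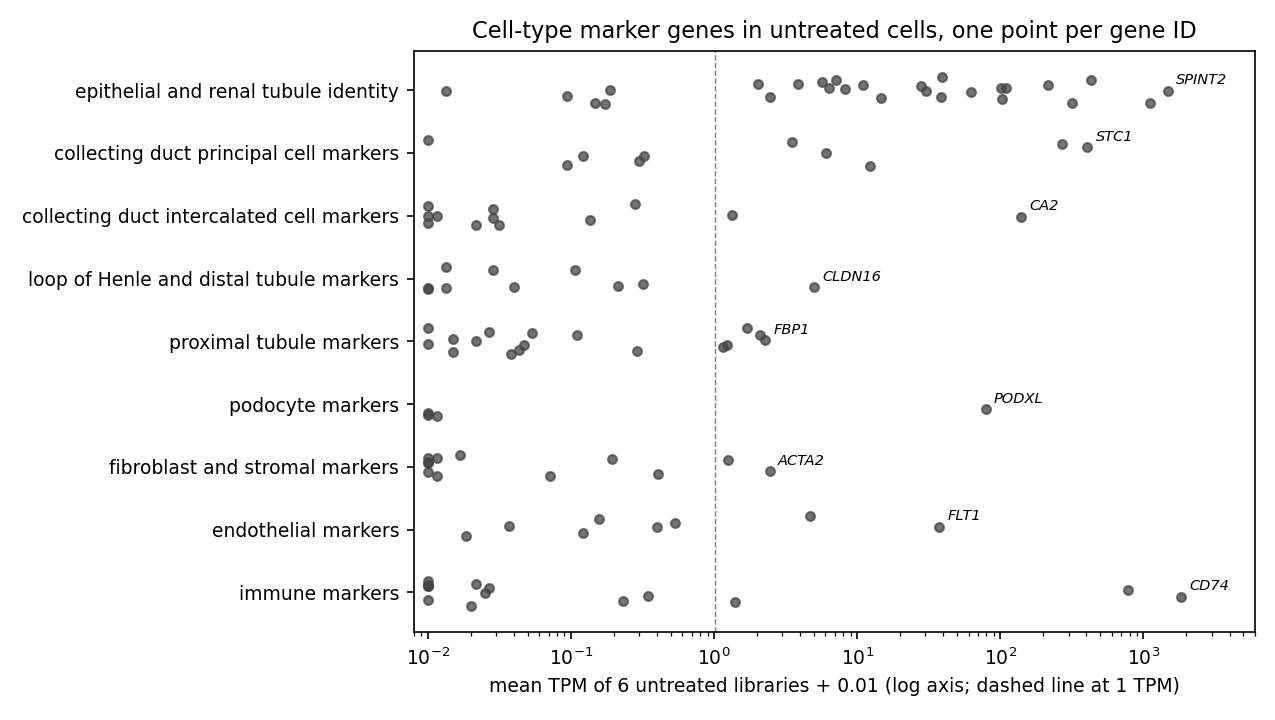
Mean level of each marker gene ID in the 6 untreated libraries; the horizontal axis is TPM plus 0.01 on a log scale, each row is a marker list, each point is 1 ID, the dashed line stands at 1 TPM and the vertical scatter within a row has no meaning. Epithelial markers reach 1482 TPM, while fibroblast and proximal tubule markers do not pass 2.44 TPM and 11 of 14 immune IDs lie under 1 TPM.

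Against that background, few genes passed the test for a change between 12 h and 24 h without Yoda1. By edgeR's quasi-likelihood test with Benjamini-Hochberg adjustment, 23 of 14169 genes (0.162%) passed an adjusted p of 0.05. Of these, 5 rose (0.0353%) and 18 fell (0.127%), and 4 changed at least 2-fold. A symbol was given for 14, of which 2 rose and 12 fell, and 9 had none. The 3 C1 and 3 C2 libraries did not overlap in any of the 23, where over all genes 7.42% lay wholly higher and 6.85% wholly lower in C2. At an unadjusted p of 0.05, 897 genes were higher (6.33%) and 780 lower (5.5%), and the median log2 fold change of all genes was 0.0163.

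The count rested on single libraries. It was 205 without C2 replicate 1 and 282 without C2 replicate 2, but 3 without C2 replicate 3. It was 1 without C1 replicate 1, 1 without C1 replicate 2 and 4 without C1 replicate 3. Treated libraries have no part in the C1 and C2 means, but enter the estimate of spread, the filter on low counts and the scaling. Leaving out 1 of them gave 8, 32 and 1 for T1 replicates 1 to 3 and 21, 2 and 2 for T2 replicates 1 to 3. Genes tested then numbered 14390 to 14406 in place of 14169. DESeq2 called 258 genes on the same counts, with all 23 among them, and a fit of the 6 control libraries alone called 1, the Metazoa_SRP ID described further on. In that fit VIM had an edgeR adjusted p of 0.0965 and the other 21 called genes 0.195 or more.

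Apart from an ID named Metazoa_SRP, described further on, the named gene with the smallest adjusted p was VIM, which fell. VIM stood at 2067, 1998 and 1961 CPM (counts scaled by TMM library size and not corrected for length) at 12 h and at 1203, 1187 and 1142 CPM at 24 h. All C2 libraries lay well below all C1 libraries, with little spread within either group. The log2 fold change was -0.77 ± 0.10 (SE; edgeR adjusted p = 0.0175, n = 3 libraries per group). With Yoda1, VIM was at 2275, 2713 and 2409 CPM at 12 h and 1845, 2249 and 2341 CPM at 24 h. The 24 h controls therefore lay below the other 9 libraries of the series. VIM kept its call in 8 of the 12 fits that left out a library and had a highest adjusted p of 0.116 over them.

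Among adhesion and membrane genes, ITGA3, whose product joins ITGB1 as a receptor for laminin, was at 1149, 1107 and 1195 CPM in C1 and 814.3, 792.2 and 699.2 CPM in C2. The groups did not overlap, and the 6 treated libraries, at 846.5 to 971.5 CPM, lay between them. ITGA3 fell by 0.58 ± 0.08 on the log2 scale (edgeR adjusted p = 0.0316). It kept its call in 5 of the 12 fits that left out a library. TSPAN8, a tetraspanin of epithelial membranes, was at 621.9, 623.4 and 715.5 CPM in C1 and 451.2, 415.4 and 391.9 CPM in C2, a log2 fold change of -0.64 ± 0.11 (edgeR adjusted p = 0.0447). As for VIM, the C2 libraries lay below the other 9 libraries.

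MALL, a small membrane protein related to the apical sorting protein MAL, was at 152.1, 142.7 and 154.7 CPM in C1 and 103.2, 93.0 and 89.9 CPM in C2. MALL fell (log2 fold change -0.65 ± 0.11, edgeR adjusted p = 0.0478), and no C2 library reached the C1 range. With Yoda1, MALL ran the other way, from 31.8, 35.7 and 32.3 CPM at 12 h to 42.3, 61.2 and 57.2 CPM at 24 h (0.69 ± 0.12, edgeR adjusted p = 0.0462). The difference between the time changes was 1.34 ± 0.16 (edgeR adjusted p = 0.013). TMEFF2, a transmembrane protein with follistatin-like domains, was at 198.7, 174.8 and 169.5 CPM in C1 and 120.4, 95.3 and 116.5 CPM in C2 and fell by 0.71 ± 0.11 (edgeR adjusted p = 0.0337). Its C1 libraries lay above the other 9, and its time change also differed with Yoda1, by 0.97 ± 0.15 (edgeR adjusted p = 0.0305).

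P2RY2, a receptor for extracellular ATP and UTP, was lower by less. It was at 89.5, 90.2 and 100.1 CPM in C1 and 68.5, 72.8 and 68.0 CPM in C2, with no overlap. P2RY2 fell by 0.42 ± 0.07 (edgeR adjusted p = 0.0478), the smallest change among the named genes called. P2RY2 and MALL each kept their call in 3 of the 12 fits that left out a library, and TSPAN8 and TMEFF2 in 5.

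Of the secreted and stress-related products, STC1, the glycoprotein hormone stanniocalcin-1, was at 267.8, 218.3 and 268.1 CPM in C1 and 123.8, 183.3 and 122.3 CPM in C2. C2 replicate 2 lay highest of its group but below all C1 libraries, and the C1 libraries lay above the other 9 libraries of the series. STC1 fell by 0.81 ± 0.14 (edgeR adjusted p = 0.0447), a call kept in 2 of the 12 fits that left out a library. MANF, an endoplasmic reticulum stress protein, was at 159.1, 159.3 and 169.8 CPM in C1 and 102.4, 125.6 and 101.9 CPM in C2, and fell by 0.57 ± 0.09 (edgeR adjusted p = 0.0337). The 6 treated MANF values, 106.1 to 126.9 CPM, lay within or next to the C2 range, so C1 stood apart here too.

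KLHL13, an adaptor of a cullin ubiquitin ligase, had the largest change among the called named genes of at least 5 CPM. It was at 7.08, 5.19 and 4.36 CPM in C1 and 2.42, 1.52 and 1.61 CPM in C2, 2.98-fold lower (log2 fold change -1.58 ± 0.23, edgeR adjusted p = 0.0316). Its level was low throughout, and the 6 treated libraries, at 3.58 to 5.6 CPM, lay above the C2 libraries. UGP2, which makes UDP-glucose, averaged 186.2 ± 12.9 CPM in C1 and 134.7 ± 11.1 CPM in C2 (SD, n = 3), and DDX39B, an RNA helicase of splicing and export, 176.9 ± 5.0 and 128.5 ± 2.3 CPM. Both fell, by 0.47 ± 0.08 and 0.46 ± 0.07 on the log2 scale (edgeR adjusted p = 0.042 and 0.0337). UGP2 and DDX39B kept their calls in 4 of the 12 fits that left out a library, MANF in 5 and KLHL13 in 6.

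The named genes that rose were ADM and TEF. ADM, the vasoactive peptide adrenomedullin, was at 17.7, 22.0 and 19.1 CPM in C1 and 33.3, 38.8 and 28.8 CPM in C2, 1.71-fold higher (log2 fold change 0.78 ± 0.12, edgeR adjusted p = 0.0337). It rose as well between the treated times, from 22.8, 22.9 and 24.2 CPM to 39.9, 34.1 and 38.4 CPM (0.69 ± 0.12, edgeR adjusted p = 0.045), in libraries that share no sample with C1 and C2. ADM was thus higher in all 6 libraries of 24 h than in any of 12 h, and its C2 against C1 call held in 5 of the 12 fits that left out a library.

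TEF, a clock-controlled transcription factor, was at 8.39, 10.5 and 10.1 CPM in C1 and 14.1, 22.7 and 19.4 CPM in C2. The C2 libraries lay above every other library of the series. TEF rose 1.94-fold (log2 fold change 0.95 ± 0.17, edgeR adjusted p = 0.0466), but kept its call in only 2 of the 12 fits that left out a library. With Yoda1 it went from 12.1, 10.6 and 11.6 CPM to 6.87, 5.35 and 6.73 CPM (-0.85 ± 0.17, edgeR adjusted p = 0.0757). The difference between the time changes was -1.81 ± 0.24 (edgeR adjusted p = 0.0187).

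**Figure D3:**
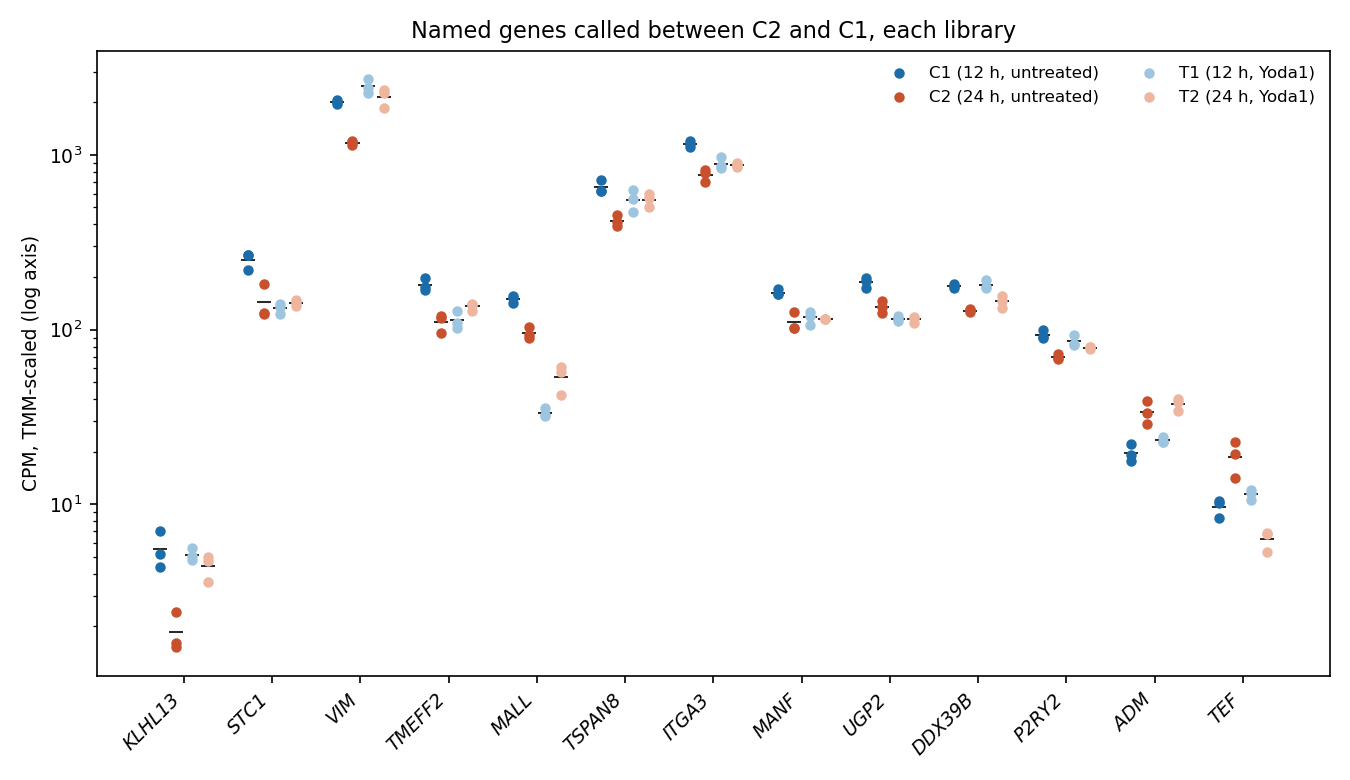
The 13 named genes called between C2 and C1 with at least 5 CPM, ordered by log2 fold change; the vertical axis is TMM-scaled CPM on a log scale, each point is 1 library, black bars are group means, and colours mark the 4 groups. Dark blue (C1) and dark red (C2) points do not overlap in any gene, and the C2 points of VIM lie below all other groups while the C1 points of STC1 lie above them.

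Set against the 9 remaining libraries, these 13 genes divided by which control group stood apart. In 6 of them, ADM, STC1, TMEFF2, MALL, MANF and UGP2, the C1 but not the C2 libraries lay wholly outside the range of the rest. In another 6, TEF, KLHL13, VIM, TSPAN8, DDX39B and P2RY2, this held for the C2 but not the C1 libraries, and in ITGA3 both groups stood apart. Between T1 and T2, 22 of the 23 called genes had a change closer to 0 than between C1 and C2, and 13 of the 23 had the same sign. Since the 23 were chosen for their C2 against C1 change, a smaller value in other libraries is no result of its own.

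The largest fitted fall of all was of an ID named Metazoa_SRP (ENSCAFG00845002520), a name for the RNA of the signal recognition particle. This ID was chosen for description after its values were seen. It held 100.33, 156.45 and 55 counts in the C1 libraries and 0 in all 6 libraries of 24 h, the only ID of 31121 with counts in every 12 h library and 0 in every 24 h library. Of the 22 IDs of that name, 2 others had exactly the same counts as it at 12 h, and each held 245, 170 and 217.98 counts in C2. Summed, the 3 IDs were at 10.77 ± 2.40 CPM in C1 and 11.69 ± 1.20 CPM in C2 (SD, n = 3), a log2 fold change of 0.11 ± 0.15 (edgeR adjusted p = 0.827). The call was thus of the division of reads over copies of 1 sequence family, and with the 3 IDs summed 20 genes were called. The treated libraries divided the same way, over 3 IDs at 12 h and 2 at 24 h. Whether the libraries of both times were counted in 1 run is not stated, and a difference in counting between the times cannot be told apart from time in any C2 against C1 value.

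Of the 50 gene lists with a tested member, 7 held a called gene and 43 none. Counts at an unadjusted p of 0.05 are given as a description, to be read beside the shares over all genes. These shares were 6.33% higher and 5.5% lower, with 0.162% called. Without C2 replicate 1 they were 7.92%, 8.12% and 1.43%, and without C2 replicate 2 they were 9.67%, 7.96% and 1.96%. Leaving out either library thus raised calls over all genes. Of all genes tested, 53.67% had a log2 fold change above 0. On the circadian clock list, TEF was the 1 called gene of 16 tested. Another 8 were higher and 1, BHLHE41, lower at an unadjusted p of 0.05, so that 9 of 16 lay on the higher side, where the share over all genes was 6.33%. The median log2 fold change of the list was 0.24 in C2 against C1 and -0.12 in T2 against T1. The counts without C2 replicate 1 were 8 higher and 1 lower of 16, and without C2 replicate 2 they were 9 and 1 of 17.

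Individual clock genes varied in how clearly the times parted. CRY2, a repressor of the clock, was at 2.47, 2.74 and 2.52 CPM in C1 and 4.17, 4.1 and 4.2 CPM in C2 (log2 fold change 0.69 ± 0.17, edgeR adjusted p = 0.145). DBP, a relative of TEF, was at 1.76, 2.09 and 2.13 CPM in C1 and 2.57, 2.7 and 2.92 CPM in C2 (0.46 ± 0.18, edgeR adjusted p = 0.348). Neither gene's groups overlapped and neither passed the test. NR1D2, a nuclear receptor that represses clock genes, was at 18.7, 19.0 and 23.5 CPM in C1 and 22.9, 33.3 and 29.8 CPM in C2, which overlap (0.49 ± 0.15, edgeR adjusted p = 0.239). Its change differed with Yoda1 by -1.29 ± 0.21 (edgeR adjusted p = 0.0332).

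BHLHE41, a repressor in the same loop, went the other way, from 174.4, 163.4 and 171.1 CPM to 125.8, 142.8 and 139 CPM (-0.32 ± 0.07, edgeR adjusted p = 0.0999). PER1 was at 23.4, 24.4 and 23.1 CPM in C1 and 25.5, 27.3 and 26.9 CPM in C2 (0.17 ± 0.08, edgeR adjusted p = 0.41). CLOCK and NPAS2, activators of the loop, had log2 fold changes of -0.06 ± 0.19 and 0.15 ± 0.23 (edgeR adjusted p = 0.931 and 0.852). NR1D1, a close relative of NR1D2, showed the spread within C2, with 13, 39.2 and 20 CPM there against 19.9, 17.7 and 22.4 CPM in C1.

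Proliferation genes lay slightly higher at 24 h without a single call. All 30 tested G2/M and mitosis genes had log2 fold changes above 0 (53.67% over all genes), from 0.06 to 0.50 with a median of 0.23. In 18 the C1 and C2 libraries did not overlap (7.42% over all genes). At an unadjusted p of 0.05, 17 were higher and 0 lower. AURKB, a mitotic kinase, was at 19.7, 20.6 and 18.7 CPM in C1 and 26.9, 24.7 and 27.8 CPM in C2 (0.43 ± 0.12, edgeR adjusted p = 0.171). KIF4A, a chromosome-associated kinesin, was at 24.9, 25.4 and 25 CPM in C1 and 30.2, 30.6 and 30.2 CPM in C2 (0.27 ± 0.08, edgeR adjusted p = 0.215). The groups of both genes were apart, by less than 1.5-fold. Without C2 replicate 1, 15 of 30 were higher at an unadjusted p of 0.05, and without C2 replicate 2, 18.

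Of 24 S phase and replication genes, 22 lay above 0 with a median of 0.15. At an unadjusted p of 0.05, 6 were higher (6.33% over all genes) and 1 lower (5.5%). Without C2 replicate 1 the counts were 3 and 1, and without C2 replicate 2 they were 4 and 0. CDC6, which loads the replicative helicase, was at 64.6, 57.1 and 58.8 CPM in C1 and 89.3, 85.2 and 73.8 CPM in C2 (0.46 ± 0.12, edgeR adjusted p = 0.157). All 6 treated libraries were also above the C1 range for CDC6, at 88.8 to 125 CPM. The median change of these genes between T1 and T2 was 0.15, and that of the G2/M list 0.12. All 14 histone and histone-handling genes lay above 0 (median 0.17), with 4 higher at an unadjusted p of 0.05 (6.33% over all genes). Between T1 and T2 the median of the histone list was -0.12, on the other side of 0.

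Growth-related ribosome genes lay on the lower side. Of 22 ribosome biogenesis genes, 18 had log2 fold changes below 0, where 6564 of all 14169 genes did. At an unadjusted p of 0.05, 9 were lower and 0 higher (5.5% of all genes were lower), and 8 had groups that did not overlap (6.85%). The median was -0.15, close to the values of -0.15 without C2 replicate 1 and -0.15 without C2 replicate 2, against 0.08 in T2 against T1. Calls numbered 0 without C2 replicate 1 and 2, both lower, without C2 replicate 2. NOP16, a nucleolar protein, was at 208.9, 189.3 and 203.1 CPM in C1 and 156.3, 164.4 and 164.7 CPM in C2 (-0.31 ± 0.06, edgeR adjusted p = 0.0913). Of 86 ribosomal protein genes, 79 lay below 0, with a median of only -0.08. That median became 0.01 without C2 replicate 2, so its direction hung on that library.

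Of the junction and cell shape lists, tight junction genes had a median of 0.15 and none called. At an unadjusted p of 0.05, 4 of 18 were higher (6.33% over all genes) and 0 lower (5.5%). CGN, the junction scaffold cingulin, was at 146.5, 156 and 149.3 CPM in C1 and 192.3, 176.3 and 191.7 CPM in C2 (0.31 ± 0.06, edgeR adjusted p = 0.0846). OCLN was at 65.6, 66.2 and 70.5 CPM in C1 and 89.8, 90.1 and 77.7 CPM in C2 (0.35 ± 0.08, edgeR adjusted p = 0.116). The libraries of the 2 times were apart for both. The list median was 0.07 without C2 replicate 1 and 0.07 without C2 replicate 2, where 2 genes were called (11.1%, against 1.96% of all genes).

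The epithelial-mesenchymal transition list, which holds VIM, had 1 of 17 genes called and a median of -0.25. At an unadjusted p of 0.05, 5 were lower (5.5% over all genes) and 2 higher (6.33%). Without C2 replicate 1 its median was -0.44, with 3 of 18 called lower and 8 lower at an unadjusted p of 0.05. Over all genes that fit called 1.43% and had 8.12% lower. Without C2 replicate 2 its median was -0.27, with 2 of 18 called lower and 5 lower at an unadjusted p of 0.05. Over all genes that fit called 1.96% and had 7.96% lower. The integrin and focal adhesion list had ITGA3 as its 1 called gene of 19, and a median of -0.08. Without C2 replicate 2 the median was -0.19, with 2 genes called and 7 lower at an unadjusted p of 0.05 (36.8%, against 7.96% over all genes). With that library 2 were lower (10.5%, against 5.5% over all genes). Without C2 replicate 1 the integrin median was -0.07, with 1 gene called and 3 lower and 3 higher at an unadjusted p of 0.05. ANXA2, the abundant annexin named above, was at 3422, 3514 and 3733 CPM in C1 and 2654, 3033 and 2688 CPM in C2 (-0.35 ± 0.09, edgeR adjusted p = 0.159). The groups of ANXA2 did not overlap. No adherens junction gene of 14 was called, and the median of that list was 0.02. In that list 1 gene was called lower without C2 replicate 1, and 1 without C2 replicate 2.

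Stress and signalling lists were mixed. The unfolded protein response list had MANF called lower and a median of -0.03. At an unadjusted p of 0.05, 5 of 18 were lower (5.5% over all genes) and 1 higher (6.33%). Without C2 replicate 2, 3 were called lower, where 1.96% of all genes were called. Without C2 replicate 1, 3 were called (2 lower, 1 higher), where 1.43% of all genes were called. The hypoxia list had both ADM higher and STC1 lower among 19 genes, so its called members went in opposite directions, with a median of 0.22 that became 0.08 without C2 replicate 1. At an unadjusted p of 0.05, 2 of these genes were higher (10.5%, against 6.33% over all genes), and 7 without C2 replicate 2 (36.8%, against 9.67%). Of 32 autophagy and lysosome genes, 6 were higher (6.33% over all genes) and 0 lower at an unadjusted p of 0.05. Without C2 replicate 1, 11 were higher (7.92% over all genes). GABARAPL1, which coats autophagosomes, was at 30.8, 40.1 and 32.1 CPM in C1 and 65.5, 44.9 and 67.8 CPM in C2 (0.79 ± 0.16, edgeR adjusted p = 0.0999).

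Of 25 interferon-stimulated genes, 6 were higher (6.33% over all genes) and 0 lower (5.5%) in C2 at an unadjusted p of 0.05. Of these 25, 0 were called, and the median was 0.18. The 0 lower became 4 without C2 replicate 1 (8.12% over all genes), against 4 higher (7.92%). DTX3L, a ubiquitin ligase partner of PARP9, was at 25.6, 28.3 and 28.6 CPM in C1 and 34, 52.3 and 32.5 CPM in C2 (0.52 ± 0.15, edgeR adjusted p = 0.222). Between the treated times the list's median was -0.37. For oxidative phosphorylation, 0 of 51 genes passed even an unadjusted p of 0.05, where 3 were lower without C2 replicate 1 and 1 without C2 replicate 2, and the median was -0.05. Cholesterol synthesis genes had a median of 0.00 with 1 of 17 higher and 0 lower at an unadjusted p of 0.05. That median was -0.19 without C2 replicate 1, with 8 lower (8.12% over all genes). It was 0.14 without C2 replicate 2, with 3 higher (9.67% over all genes), so the median lay between opposed C2 libraries.

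**Figure D4:**
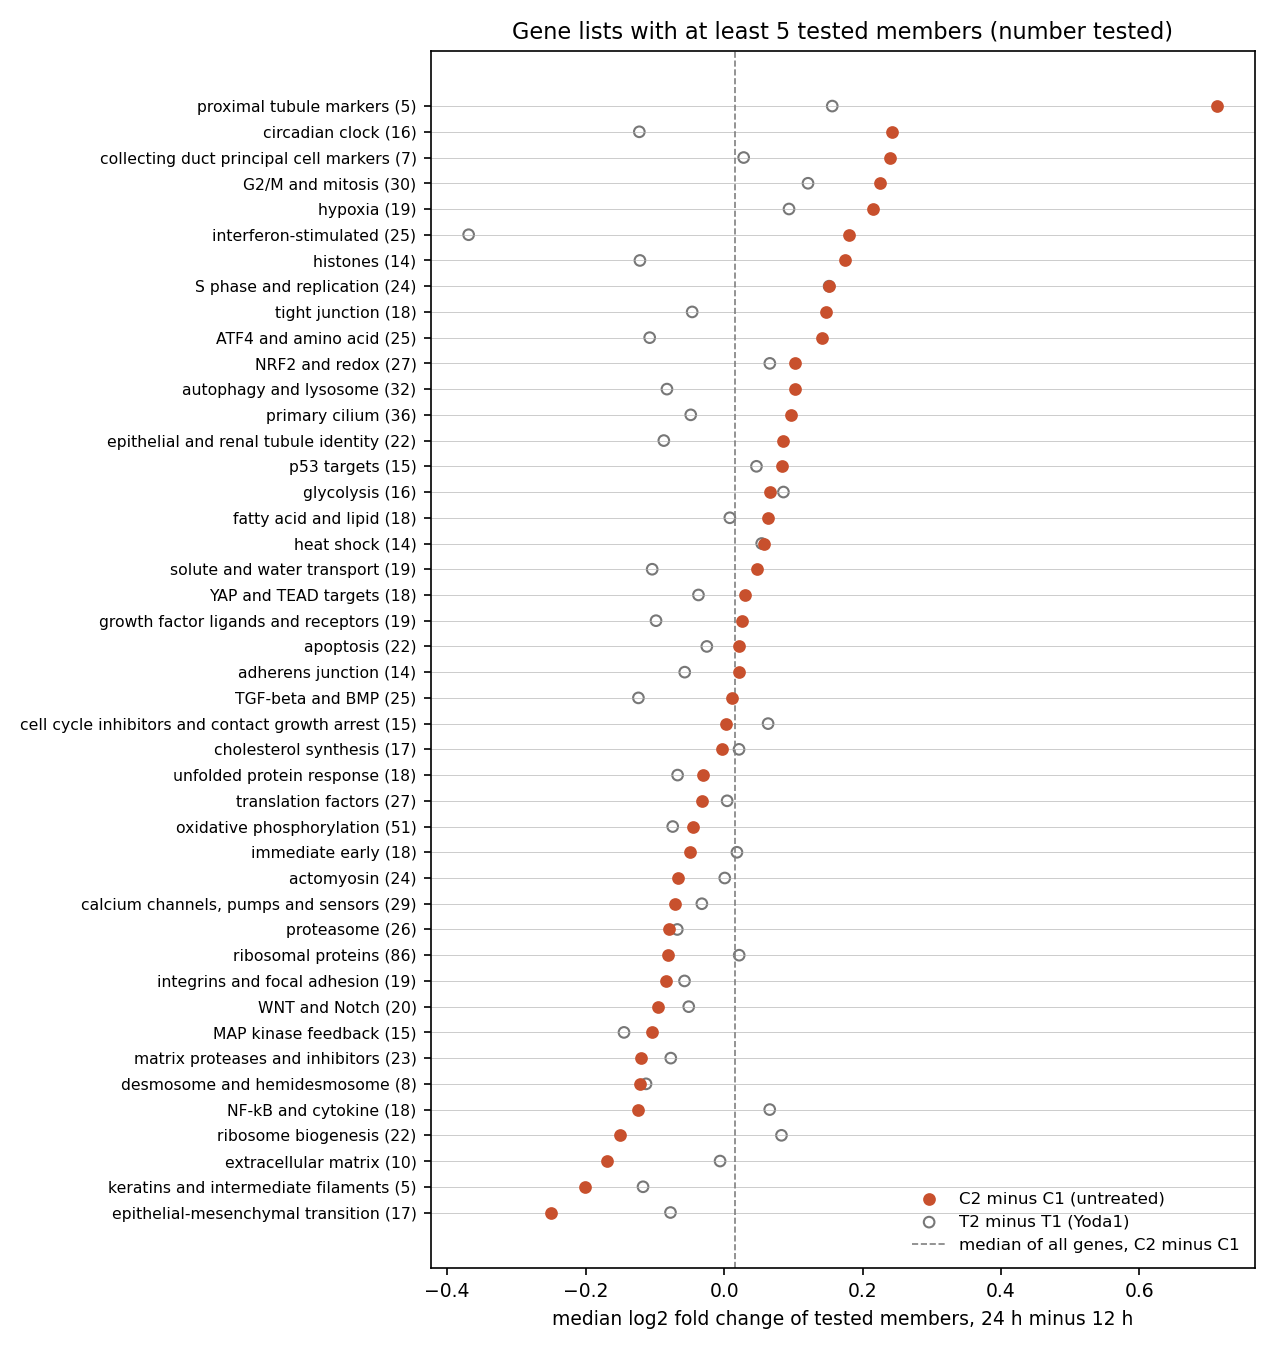
Median log2 fold change of the tested members of each gene list (number tested in brackets), 24 h minus 12 h; filled points are C2 minus C1, open points are T2 minus T1, and the dashed line is the median of all 14169 genes for C2 minus C1. The G2/M list (0.23 and 0.12) has both points above 0, while the clock list (0.24 and -0.12) and the interferon list (0.18 and -0.37) have them on opposite sides. The 5 proximal tubule genes at 0.71 stand at 0.44 without C2 replicate 1 and, with 7 tested, at 1.08 without C2 replicate 2. These are low levels, with FBP1 at 0.869 and SLC22A2 at 0.909 CPM on average in C1.

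The 24 h controls also differed among themselves. Among named genes with a mean of at least 20 CPM, the 20 with the widest range within C2, chosen after their values were seen and so given with no test of their own, were highest in C2 replicate 1 in 15 cases and in C2 replicate 2 in 5, and C2 replicate 3 lay between in 17. CYP4A11, a fatty acid hydroxylase of the proximal tubule, was at 59.9, 4.22 and 33.4 CPM in C2 replicates 1 to 3, against 9.16 to 18.5 CPM in C1. ALDH1A1, a retinaldehyde dehydrogenase, was at 1209, 263.3 and 787.2 CPM in C2 and 365.6 to 500.2 CPM in C1. CA2 was at 226.7, 53.2 and 102.5 CPM in C2 and 92.5 to 98.3 CPM in C1. For these 3 genes C2 replicate 1 lay above, and C2 replicate 2 below, the whole C1 range.

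Genes highest in C2 replicate 1 included DAO, a D-amino acid oxidase (76.3, 11.9 and 27.2 CPM), CA14, a membrane carbonic anhydrase (72.7, 19.4 and 44.2 CPM), and the annexin ANXA13 (48.6, 10.5 and 20.5 CPM). SLC22A2, a basolateral organic cation transporter, was at 12.1 CPM in C2 replicate 1 and at 0.517 and 2.37 CPM in the other C2 libraries. Highest in C2 replicate 2 were the immediate early genes FOSB (10.3, 44 and 21.4 CPM) and FOSL1 (13.3, 41 and 17.8 CPM), the MAP kinase phosphatase DUSP5 (61.9, 227.8 and 127.8 CPM), the metallothionein MT1E (62.5, 255 and 116.7 CPM) and the gelatinase MMP9 (348.5, 1099 and 488.4 CPM). MMP9 also spread within C1 (591.9, 723.9 and 1090 CPM). So did MMP13, KRT27 and WNT5B, with log2 ranges of 1.80, 1.55 and 1.61 in C1 and 3.69, 2.80 and 2.19 in C2. FOSB and DUSP5 ranged by 0.146 and 0.15 in C1. None of the 20 genes was called between the times (0 of 20). The part of this spread in the C2 against C1 calls was not tested beyond the counts without each library given above.

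**Figure D5:**
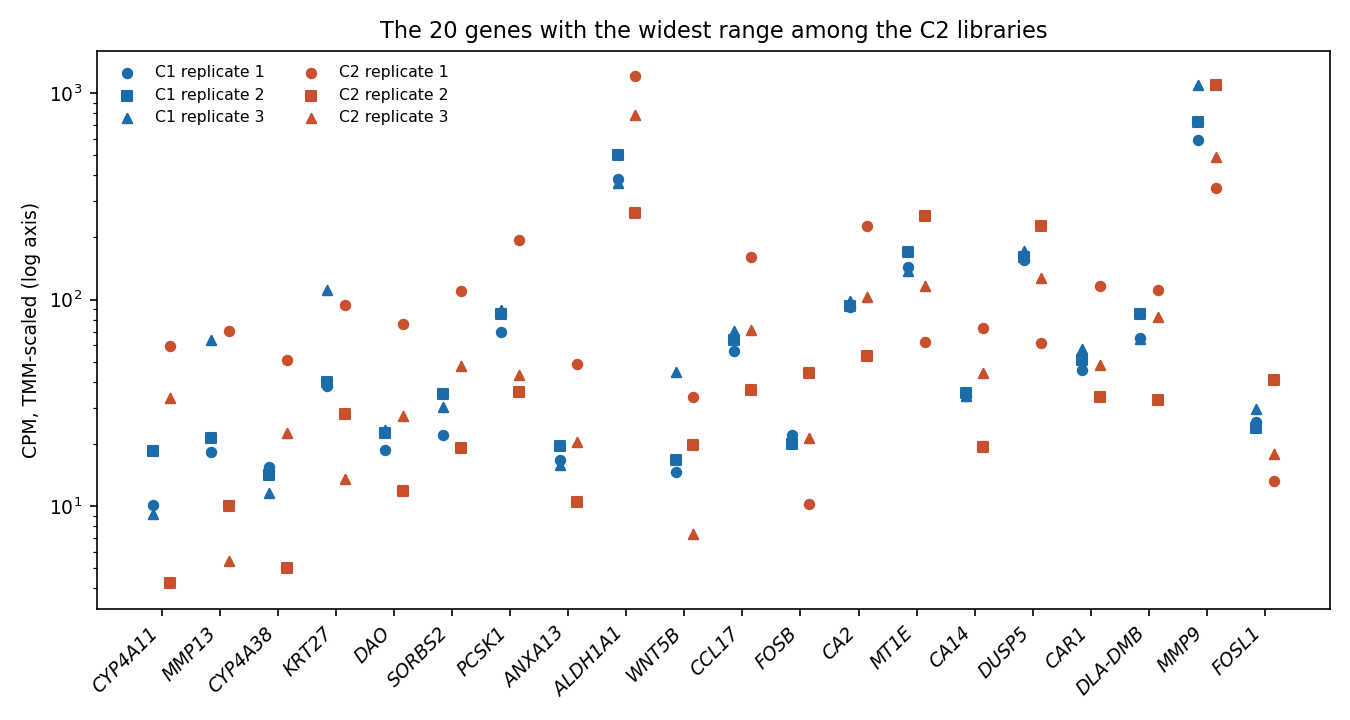
The 20 named genes with the widest range among the C2 libraries and a mean of at least 20 CPM; the vertical axis is TMM-scaled CPM on a log scale, blue symbols are C1 and red symbols C2, with circles, squares and triangles for replicates 1, 2 and 3. Red circles (C2 replicate 1) are highest among the C2 libraries in 15 genes and red squares (C2 replicate 2) in 5.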

How the data were processed

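Polyadenylated RNA was read as 101 bp pairs from strand-specific libraries, per the labels' protocols. The tools were fastp 0.23.4 with STAR 2.7.10b and RSEM 1.3.3, per the submitters' processing notes. No source used here names the genome build or annotation. The authors' expected counts for each gene were deposited without normalization, and the TPM deposited by the authors scale each library to 1 total. Condition and time come from the deposited sample sheet, where the full name of every library carries lane 5, so lanes do not separate the groups. PIEZO1 is the symbol of no ID. Whether replicates were separate cultures is not stated in the labels, so the p-values cover only spread among libraries, possibly technical.

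Expected counts were rounded (91.1% already equalled their rounded value), filtered with filterByExpr, scaled by TMM and fitted with edgeR 4.0.16 (R 4.3.3), robust quasi-likelihood, 1 mean per group over all 12 libraries, without a replicate block. Genes were called at a Benjamini-Hochberg adjusted p under 0.05. The common biological coefficient of variation was 13.32%. The script was tested on simulated data. Alternatives used DESeq2 1.42.0 and limma 3.58.1. Levels in TPM were described without a test, and log2 TPM entered limma only as an alternative.

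The libraries, the 51 lists (1534 symbols, 992 named in the files, 879 tested) and the tests were chosen with earlier results of these data known. Genes were named by rule: up to 15 called genes in each direction with at least 5 CPM and no overlap of groups, called members of each list or otherwise the 2 with the smallest p, all clock genes, and for TPM the 30 most abundant symbols and the leading list members. Others are said to be chosen after their values were seen, as were SCNN1B, LRP2, CDH5, DCN, LUM, FAP, CD3D, MS4A1, PTPRC, CAV1 and PAX8. Some items are not reported here. No p was adjusted over a list alone.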

Additional observations from a re-analysis of the deposited data

Results flagged for a closer look

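The change from 12 h to 24 h differed between cells with and without Yoda1 in 22 of 14169 genes by a test of the difference itself (0.155%, edgeR adjusted p under 0.05), with 9 higher and 13 lower under Yoda1. The change C2 minus C1 in that test uses the 6 libraries described above, and the change T2 minus T1 the 6 treated ones. Differences are log2 values, the change T2 minus T1 less the change C2 minus C1. They were -2.00 for RTP4, -1.92 for DHX58, -1.48 for PARP9 and -1.41 for USP18, all of them interferon-stimulated genes. DHX58, an RNA sensor, was at 24.9 to 30 CPM in C1, 29.8 to 55.9 CPM in C2, 27.7 to 36.7 CPM in T1 and 11.7 to 13.9 CPM in T2. The difference was -1.81 for TEF and -1.29 for NR1D2, both clock genes, and -0.85 for SESN2, a stress-induced sestrin. It was 0.77 for PLA2G4A, a phospholipase, 0.85 for PINX1, a telomerase inhibitor, 0.97 for TMEFF2, 1.34 for MALL and 1.34 for GDPD2, a glycerophosphodiester phosphodiesterase. The count of 22 became 362 without C2 replicate 1 and 84 without C2 replicate 2.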

How the results depend on the processing

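The 23 calls of C2 against C1 became 258 with DESeq2, 5 with limma on log2(TPM + 1) and 6 on log2(TPM + 0.1), and 1, the Metazoa_SRP ID, in the 6 control libraries alone. RLE scaling (23), library size scaling (20), limma voom (17), no filter (30), a filter at 1 CPM (26) and, chosen after seeing the data, the summed Metazoa_SRP IDs (20) stayed within 1.5 times of it. Without 1 library the count ran from 1 to 282, and that of the difference between time changes from 0 to 362. The latter (22) was 228 with DESeq2 and 34 without the filter. The share of calls that were higher was 21.74%, 38.76% with DESeq2 and 0% to 66.67% without 1 library. For the 115 named genes, a change of sign was counted only where the main fit or the alternative called the gene. On that count they reversed in 0 settings, with 152 calls lost and 58 gained. Uncalled genes could change sign: PODXL was at 0.30 in the main fit and -0.08 without C2 replicate 1. The share of TPM in the top 50 IDs, 20.92%, lay between 20.7% and 21.1% under its alternatives.

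With the replicate number as a block, 1 gene was called in the 6 control libraries, 3 in all 12 (chosen after seeing the data) and 0 in the difference. Deviations of same-numbered C1 and C2 libraries correlated at -0.00831, -0.19 and -0.205, so the numbers were not taken to pair libraries.

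Limits. With 3 libraries per group and a wide C2 spread, a gene not called is not shown to be constant. Causes of the changes between settings were not tested.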

Other observations

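Other gene lists are given as values, with no called member in any of those named here by the fit to all 12 libraries. The shares over all genes at an unadjusted p of 0.05 were 6.33% higher and 5.5% lower. They were 7.92% and 8.12% without C2 replicate 1 (1.43% called), and 9.67% and 7.96% without C2 replicate 2 (1.96% called). Of 27 NRF2 and redox genes, 4 were higher and 1 lower in C2 at an unadjusted p of 0.05, with a median log2 fold change of 0.10. Without C2 replicate 1 these became 9 higher, 0 lower, 2 called and a median of 0.21. Without C2 replicate 2 they were 5 higher, 2 lower, 0 called and a median of 0.07. ME1, a malic enzyme that yields NADPH, was at 116.9, 103.5 and 117.4 CPM in C1 and 140.8, 151.1 and 143.6 CPM in C2 (0.37 ± 0.09, edgeR adjusted p = 0.141), and its groups did not overlap. Of 20 WNT and Notch genes, 3 were lower and 0 higher, and 5 were lower without C2 replicate 1. In this list 1 gene was called lower without C2 replicate 1, and 2 without C2 replicate 2. WNT10A, a WNT ligand, was at 56.2, 55.9 and 54.9 CPM in C1 and 42.8, 26.7 and 38.6 CPM in C2 (-0.63 ± 0.13, edgeR adjusted p = 0.0999), and its C2 libraries were all below C1.

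Of 18 NF-kB and cytokine genes, 4 were lower and 1 higher, with a median of -0.12. Without C2 replicate 2 there were 8 lower, 1 of them called, and a median of -0.22, but 3 lower and 3 higher without C2 replicate 1. NFKBIA, the inhibitor induced by NF-kB itself, was at 11.3, 9.96 and 11.4 CPM in C1 and 7.98, 7.9 and 6.12 CPM in C2 (-0.57 ± 0.16, edgeR adjusted p = 0.19), without overlap. Of 23 matrix protease and inhibitor genes, 5 were lower and 2 higher. Without C2 replicate 1 there were 6 lower, 2 of them called, and 4 higher. TIMP1, a metalloprotease inhibitor, was at 97.6, 81.7 and 67.5 CPM in C1 and 62.1, 47.7 and 58.7 CPM in C2 (-0.55 ± 0.16, edgeR adjusted p = 0.208). CTSD, a lysosomal protease, was at 899.5, 1114 and 942 CPM in C1 and 1121, 1234 and 1675 CPM in C2 (0.45 ± 0.15, edgeR adjusted p = 0.283). The groups of TIMP1 and CTSD were apart, those of CTSD by a narrow gap. Of 29 calcium channel, pump and sensor genes, 5 were lower and 0 higher. Without C2 replicate 2 there were 6 lower, 2 of them called, and 3 higher, 1 of them called. Of 22 apoptosis genes 0 passed an unadjusted p of 0.05, and 3 were lower without C2 replicate 2.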
